A study of Mus musculus with 11 samples.

Results

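The T-lineage transcription factors described here are 9 genes: Tcf7, Lef1, Gata3, Bcl11b, Runx1, Runx3, Ets1, Tox and Zbtb7b. They were taken as a list of names and matched through GENCODE gene names on GRCm38 to the Ensembl identifiers of the count table, and all 9 were found among its 54418 genes. RNA was sequenced from thymocytes of mice aged 8 to 12 weeks in 3 genotypes: 3 triple knockout mice without Puma, p21 and Zmat3 (TKO), 4 mice without Zmat3 alone (Zmat3-/-) and 4 mice with all of these genes (wt). The 3 genotypes shared the C57BL/6-WEHI background, and the TKO line was bred by crossing Zmat3-/- with Puma-/-p21-/- mice. Puma (gene Bbc3) promotes apoptosis and p21 (gene Cdkn1a) stops the cell cycle, both as targets of the tumour suppressor TRP53, and Zmat3 encodes an RNA-binding protein that TRP53 also induces. The Zmat3 deletion is common to both mutant groups, no Puma-/-p21-/- group was analysed here, and the difference between TKO and Zmat3-/- mice is the added loss of Puma and p21. Each library came from the cells of a dispersed whole thymus, so each value is an average over all thymocyte stages.

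Thymocytes pass from a stage without CD4 and CD8 through a stage with both to single-positive CD4 or CD8 cells. Notch signals switch on Tcf7 (the protein TCF-1) and Gata3 in the earliest progenitors, Bcl11b then closes off other fates, and Lef1, Runx1 and Ets1 act with them on the T cell receptor genes and on the transition to CD4 and CD8 double-positive cells. After positive selection Tox and Gata3 help to induce Zbtb7b (the protein ThPOK), which fixes the CD4 fate, whereas Runx3 silences Cd4 and fixes the CD8 fate.

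No T-lineage factor passed the test in any of the 3 genotype comparisons, but the wt mice themselves formed pairs that differed in several of them. Total counts ran from 17669715 to 80207003 per mouse, and the least abundant factor in any mouse still had 577 counts. Values are counts per 1e6 counts of the library (CPM) after TMM scaling, which corrects for library size and composition. Across genes, the correlation of log2 CPM was 0.982 between wt 1 and wt 2 and 0.981 between wt 3 and wt 4, but 0.897 to 0.926 between the pairs, against 0.984 to 0.990 within Zmat3-/- and 0.972 to 0.983 within TKO mice. The pairs also differed in Xist, the RNA of the inactive X chromosome, which was at 505 and 620 CPM in wt 1 and wt 2 and at 1.70 and 2.54 CPM in wt 3 and wt 4. Xist was high in Zmat3-/- 1, Zmat3-/- 2 and TKO 1 too (1088 to 1485 CPM) and low in the other mutant mice (0.806 to 2.11 CPM). Which feature of the wt pairs goes with the members' values cannot be told apart, and the counts of called factors below are therefore also given without each pair. All 12 T cell markers, among them Cd3e and Trac, were counted in every mouse. Their summed level was 13900 and 12165 CPM in wt 1 and wt 2, 7458 to 7845 CPM in wt 3 and wt 4, and 8116 to 8970 CPM in the mutant mice. Summed markers of other cells lay between 488 and 877 CPM for B cells, 195 and 392 CPM for myeloid cells, 195 and 315 CPM for thymic stroma and 75.6 and 157 CPM for natural killer and innate lymphoid cells. Those of erythroid cells ran from 880 to 8561 CPM, both within the wt mice, and their part in the members' values was not tested. In bulk RNA of this kind, fewer cells of a stage and less RNA per cell cannot be told apart. The deleted gene Zmat3 was lower in every mutant mouse (5.34 to 8.25 CPM) than in every wt mouse, in accord with the labels. It also split the wt pairs, with 9.88 and 12.2 CPM in wt 1 and wt 2 and 26.8 CPM in each of wt 3 and wt 4, and its log2FC was −1.64 in Zmat3-/- (adjusted p = 0.0786, edgeR) and −1.28 in TKO against wt mice (adjusted p = 0.371, edgeR). Bbc3 was at 12.9 to 15.2 CPM and Cdkn1a at 2.49 to 3.52 CPM in TKO mice, below the 15.3 to 20.1 CPM and 3.53 to 10.4 CPM of all other mice.

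Per length of exon, Tcf7 was the most abundant factor and the fate factors Zbtb7b and Runx3 the least abundant. Tcf7 led with 960 ± 140 CPM per kb (SD, n = 11 mice). Ets1 with 178 ± 38.9 and Bcl11b with 92.0 ± 18.5 CPM per kb followed, then Lef1 with 31.2 ± 3.91, Gata3 with 18.5 ± 2.90, Tox with 13.6 ± 1.24 and Runx1 with 10.5 ± 1.87 CPM per kb. Zbtb7b was at 5.72 ± 0.678 and Runx3 at 5.39 ± 1.01 CPM per kb. The values of Tcf7 did not overlap with those of Ets1, nor Bcl11b with Lef1, Lef1 with Gata3, or Runx1 with Zbtb7b. Those of Ets1 and Bcl11b, Gata3 and Tox, Tox and Runx1, and Zbtb7b and Runx3 did overlap across mice. Ets1 was nevertheless above Bcl11b inside each of the 11 mice, and Zbtb7b was above Runx3 in 6 of them. With the longest coding transcript as the length, Tox and Gata3 changed places and the other 7 factors kept their rank. The separations changed with that length: Bcl11b overlapped with Lef1 and was above it in 9 of the 11 mice, whereas Ets1 and Bcl11b did not overlap.

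**Figure D1:**
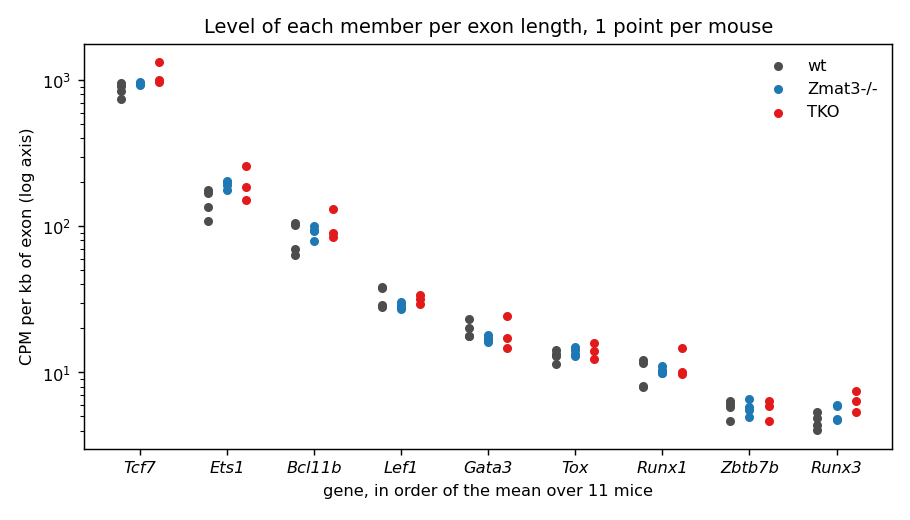
Level of each factor in CPM per kb of exon (log axis), 1 point per mouse and coloured by genotype, in the order of the mean over 11 mice. Tcf7 stands apart at the top with a mean of 960 CPM per kb, and Zbtb7b and Runx3 share the lowest range.

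Tcf7 and Lef1 encode HMG-box proteins of the TCF/LEF family, which act in Wnt responses, and Notch signals switch on Tcf7 in early T cells. Tcf7 (ENSMUSG00000000782.16, minus strand, chr11:52252371-52283014) had 1956, 2230, 2516 and 2396 CPM in wt mice 1 to 4, 2423, 2524, 2566 and 2470 CPM in Zmat3-/- mice 1 to 4, and 2622, 2541 and 3475 CPM in TKO mice 1 to 3. All 3 TKO values lay above all 4 wt values, the only such separation among the 9 factors in the 3 comparisons, where 12.1% of the 13260 genes tested in TKO against wt mice did not overlap. Its log2FC in TKO against wt mice was 0.29 (standard error, SE, 0.184, edgeR's quasi-likelihood test with Benjamini-Hochberg adjustment, adjusted p = 0.606), and it was 0.16 when wt 1 and wt 2 were left out. In Zmat3-/- against wt mice it was 0.14 (adjusted p = 0.636, edgeR), and 0.0033 without that pair.

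Lef1 (ENSMUSG00000027985.14, plus strand, chr3:131110471-131224356) had 331, 338, 254 and 247 CPM in the wt mice, 267, 255, 239 and 246 CPM in the Zmat3-/- mice and 282, 258 and 298 CPM in the TKO mice. It was highest in wt 1 and wt 2, and the values of wt 3 and wt 4 lay within those of the mutant mice. The log2FC was −0.21 for Zmat3-/- relative to wt (SE 0.125, adjusted p = 0.445, edgeR) and −0.11 in TKO against wt mice (SE 0.158, adjusted p = 0.796, edgeR). Without wt 1 and wt 2 these became −0.013 and 0.096.

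Inside 1 library the ratio of Tcf7 to Lef1 counts does not depend on the scaling. It was 5.91 and 6.60 in wt 1 and wt 2, 9.91 and 9.69 in wt 3 and wt 4, 9.08 to 10.7 in the Zmat3-/- mice and 9.31 to 11.6 in the TKO mice. Thus wt 1 and wt 2 were below the other 9 mice, which overlapped. The log2 ratio differed by 0.34 between Zmat3-/- and wt mice (two-sided exact permutation test, p = 0.143) and by 0.39 between TKO and wt mice (exact permutation p = 0.257), the latter by 0.060 with wt 1 and wt 2 left out. Adjusted over the 9 ratio tests made, both had p = 0.429, and the smallest unadjusted p these exact permutation tests allow is 0.0286.

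Among the windows of 300 bases around the starts of transcription that RefSeq gives on GRCm38.p6 (250 bases before and 50 after each start), 7 of the 9 factors had at least 1, and Tox and Ets1 had none. The windows were searched on both strands for short letters that these families bind. The TCF/LEF letters CTTTGA stand in 16% of all 32851 windows and in 2 of the factors' 14. The RUNX letters TGTGGT stand in 16.8% of all windows and in 3 of the 14. For the ETS family, CCGGAA was searched, with 14.9% of all windows and 3 of the 14. Letters of the GATA family, AGATAA, were in 11.2% of all windows and in 1 of the 14. Windows of Lef1 and Bcl11b are shown because they hold TCF/LEF letters and because these genes differed in opposite directions between the wt pairs, and the first windows of Runx1 and Runx3 because each holds the RUNX letters at 2 places, printed as their reverse complement with the same gap of 2 bases. In the lower-case sequences, 5′ to 3′ on the strand of the gene, capitals mark any of these letters. The counts are per gene and do not tell which start was used.
Lef1 chr3:131156044-131156343 (plus strand): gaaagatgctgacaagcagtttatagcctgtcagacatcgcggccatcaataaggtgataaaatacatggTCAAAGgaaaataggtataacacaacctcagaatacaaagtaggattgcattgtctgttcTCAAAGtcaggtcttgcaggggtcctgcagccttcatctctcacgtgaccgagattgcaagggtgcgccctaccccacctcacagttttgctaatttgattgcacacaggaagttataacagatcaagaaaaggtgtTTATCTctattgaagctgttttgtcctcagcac
Bcl11b chr12:108003365-108003664 (minus strand): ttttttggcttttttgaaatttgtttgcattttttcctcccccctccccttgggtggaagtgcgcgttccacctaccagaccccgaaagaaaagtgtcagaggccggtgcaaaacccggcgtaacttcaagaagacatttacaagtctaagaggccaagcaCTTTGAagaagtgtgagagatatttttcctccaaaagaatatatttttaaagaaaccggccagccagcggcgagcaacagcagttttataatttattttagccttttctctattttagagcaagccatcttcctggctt
Runx1 chr16:92826025-92826324 (minus strand): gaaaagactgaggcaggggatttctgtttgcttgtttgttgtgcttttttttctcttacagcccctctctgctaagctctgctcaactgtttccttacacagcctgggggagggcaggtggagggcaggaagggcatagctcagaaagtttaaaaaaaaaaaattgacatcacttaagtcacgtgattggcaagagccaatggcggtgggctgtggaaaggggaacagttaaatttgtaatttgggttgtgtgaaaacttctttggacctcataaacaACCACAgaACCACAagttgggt
Runx3 chr4:135120395-135120694 (plus strand): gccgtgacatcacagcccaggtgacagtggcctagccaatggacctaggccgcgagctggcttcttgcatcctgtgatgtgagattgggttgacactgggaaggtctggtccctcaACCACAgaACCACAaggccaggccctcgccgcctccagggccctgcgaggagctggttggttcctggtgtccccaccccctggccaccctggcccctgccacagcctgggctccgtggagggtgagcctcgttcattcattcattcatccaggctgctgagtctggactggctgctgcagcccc
The Lef1 window holds TCAAAG, the reverse complement of CTTTGA, at 180 and 120 bases before the start, and the GATA letters as TTATCT after it, from base 18. The Bcl11b window holds CTTTGA 89 bases before its start. ACCACA stands at bases 29 and 37 after the start of Runx1, and 134 and 126 bases before that of Runx3.

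Gata3 (ENSMUSG00000015619.10, minus strand, chr2:9857078-9890034), a zinc finger factor of early T cells and of the CD4 fate, had 92.7, 80.3, 71.2 and 70.7 CPM in the wt mice, 64.7, 72.2, 67.7 and 68.2 CPM in the Zmat3-/- mice and 68.2, 58.9 and 96.3 CPM in the TKO mice. Its highest value was in TKO 3 and its lowest in TKO 2, so that the TKO mice alone spanned all the others. The log2FC was −0.20 for Zmat3-/- relative to wt (SE 0.101, adjusted p = 0.373, edgeR) and −0.14 in TKO against wt mice (SE 0.160, adjusted p = 0.748, edgeR). Without wt 1 and wt 2 these became −0.077 and −0.0038, and without single mice they ran from −0.24 to −0.12 and from −0.28 to −0.031.

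Bcl11b (ENSMUSG00000048251.15, minus strand, chr12:107910403-108003602), the zinc finger factor of T cell commitment, had 513, 569, 856 and 824 CPM in the wt mice. The Zmat3-/- mice had 645, 753, 817 and 764 CPM and the TKO mice 727, 681 and 1062 CPM. Wt 3 and wt 4 had on average 1.55 times the level of wt 1 and wt 2, and all mutant mice but TKO 3 lay between the pairs. The log2FC was 0.11 in Zmat3-/- against wt mice (adjusted p = 0.802, edgeR) and 0.19 in TKO against wt mice (adjusted p = 0.761, edgeR). Without wt 1 and wt 2 the signs turned, to −0.19 and −0.11.

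Runx1 and Runx3 share the Runt DNA-binding domain and the partner CBFβ. Runx1 (ENSMUSG00000022952.17, minus strand, chr16:92601466-92826149), the Runx factor of immature thymocytes, had 96.4, 95.7, 140 and 146 CPM in the wt mice, 120, 134, 125 and 119 CPM in the Zmat3-/- mice and 121, 118 and 176 CPM in the TKO mice. The wt pairs did not overlap (wt 3 and wt 4 averaged 1.49 times wt 1 and wt 2), and all 4 Zmat3-/- mice lay between them. Its log2FC for Zmat3-/- relative to wt was 0.059 (SE 0.169, adjusted p = 0.876, edgeR). Leaving out wt 1 and wt 2 gave −0.22 (adjusted p = 0.0203, edgeR) and leaving out wt 3 and wt 4 gave 0.39 (adjusted p = 0.00167, edgeR), so the direction depended on the wt pair. In those fits 33% and 56.1% of all genes tested were called.

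Runx3 (ENSMUSG00000070691.10, plus strand, chr4:135120652-135177990), the Runx factor of the CD8 fate, had 20.1, 21.9, 24.4 and 26.8 CPM in the wt mice, 29.9, 29.6, 23.5 and 24.0 CPM in the Zmat3-/- mice and 26.8, 32.1 and 37.5 CPM in the TKO mice. TKO 1 was just below wt 4, and the other TKO values were above every wt value. In TKO against wt mice the log2FC was 0.41 (SE 0.158, 95% interval 0.048 to 0.78, adjusted p = 0.434, edgeR). This was the only one of the 27 tests of members whose p before adjustment was under 0.05 (0.0312), as was so for 10.3% of all genes tested in that comparison. With 1 surrogate variable, a term for variation shared by many genes, the log2FC was 0.38 (adjusted p = 0.0339, edgeR), in a fit that called 17.9% of genes. Without wt 1 and wt 2 it was 0.26 (adjusted p = 0.227, edgeR). Between Zmat3-/- and wt mice the log2FC was 0.20 (adjusted p = 0.509, edgeR), and between TKO and Zmat3-/- mice it was 0.21 (adjusted p = 0.983, edgeR). Relative to Runx3, Runx1 had 4.80, 4.37, 5.72 and 5.43 times the counts in the wt mice, 4.00 to 5.32 times in the Zmat3-/- mice and 3.67 to 4.68 times in the TKO mice. The log2 of this ratio in TKO mice minus that in wt mice was −0.25 (exact permutation p = 0.2, adjusted p = 0.429), with overlapping values.

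Ets1 (ENSMUSG00000032035.16, plus strand, chr9:32636221-32757820), the ETS family factor needed for T cell receptor expression and survival, had the widest range of the 9, with the highest mouse 2.36 times the lowest. It had 922, 1143, 1509 and 1428 CPM in the wt mice, 1501, 1614, 1717 and 1726 CPM in the Zmat3-/- mice and 1571, 1288 and 2179 CPM in the TKO mice. Zmat3-/- 1 was just below wt 3, and the other 3 Zmat3-/- mice were above every wt mouse. The log2FC was 0.39 for Zmat3-/- relative to wt (SE 0.182, 95% interval −0.023 to 0.81, unadjusted p = 0.0615, adjusted p = 0.337, edgeR) and 0.36 in TKO against wt mice (SE 0.238, adjusted p = 0.610, edgeR). Unlike that of Runx1, its log2FC for Zmat3-/- relative to wt had the same sign in mice with high Xist (0.62, adjusted p = 0.0143, edgeR) and in mice with low Xist (0.21, adjusted p = 0.0143, edgeR). Those fits compared 2 with 2 mice and called 42.1% and 28.2% of all genes tested. Without wt 1 and wt 2 it was 0.14 (adjusted p = 0.204, edgeR).

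Tox (ENSMUSG00000041272.11, minus strand, chr4:6686353-6991557), an HMG-box factor needed for CD4 T cells, was the steadiest of the 9 across mice. Its values were 87.1, 108, 98.2 and 101 CPM in the wt mice, 108, 113, 101 and 98.6 CPM in the Zmat3-/- mice and 106, 93.6 and 121 CPM in the TKO mice. The coefficient of variation over the 11 mice was 9.10%, against 11.9% for Zbtb7b and 21.9% for Ets1. The 3 log2FC values of Tox lay between −0.032 and 0.10.

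Zbtb7b (ENSMUSG00000028042.15, minus strand, chr3:89377644-89394776) had 32.5, 35.9, 26.2 and 34.0 CPM in the wt mice, 36.8, 32.6, 27.9 and 31.1 CPM in the Zmat3-/- mice and 26.1, 35.7 and 32.9 CPM in the TKO mice. The 3 genotypes overlapped over nearly their whole range. In Zmat3-/- against wt mice its log2FC was 0.0045 (95% interval −0.29 to 0.30, adjusted p = 0.988, edgeR), and in TKO against wt mice it was −0.066 (95% interval −0.46 to 0.33, adjusted p = 0.886, edgeR).

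The counts of Zbtb7b relative to those of Runx3, which set the CD4 against the CD8 fate factor inside each library, were 1.62, 1.64, 1.07 and 1.27 in the wt mice, 1.23, 1.10, 1.18 and 1.30 in the Zmat3-/- mice and 0.973, 1.11 and 0.876 in the TKO mice. TKO 1 and TKO 3 were lower than each of the other mice, and TKO 2 lay among them. The mean log2 ratio was −0.026 ± 0.173 (SD, n = 3) in TKO, 0.27 ± 0.0999 (SD, n = 4) in Zmat3-/- and 0.46 ± 0.294 (SD, n = 4) in wt mice. The difference of TKO from wt mice was −0.49 and that from Zmat3-/- mice −0.29 on the log2 scale, each with p = 0.0857 (two-sided exact permutation test, adjusted p = 0.386). With wt 1 and wt 2 left out the first became −0.25. Both comparisons use the same TKO mice. Zmat3-/- and wt mice differed by −0.20 (exact permutation p = 0.286), and by 0.044 with wt 1 and wt 2 left out.

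**Figure D2:**
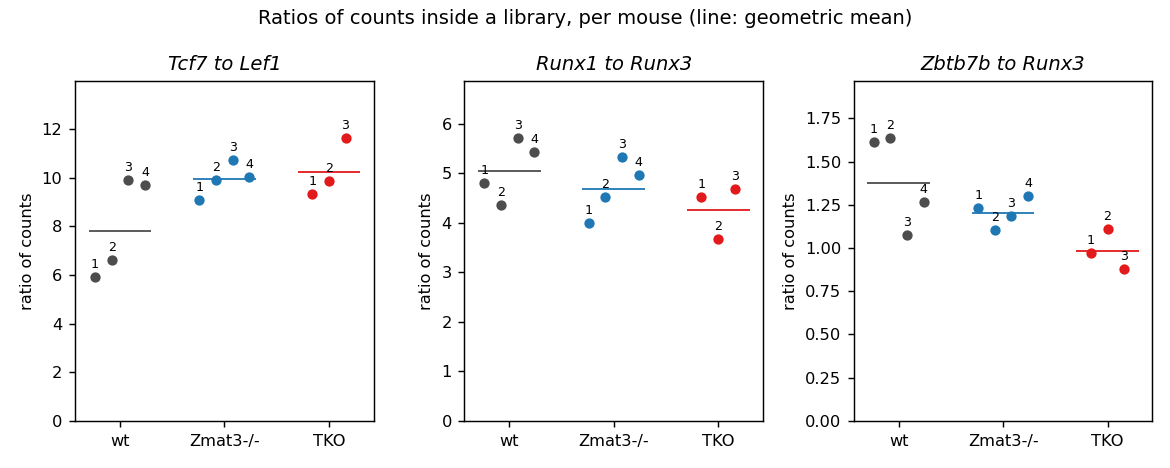
Ratio of counts of 2 factors inside each library, 1 point per mouse with its replicate number, and the geometric mean of each genotype as a line. The Tcf7 to Lef1 ratio of wt 1 and wt 2 (5.91 and 6.60) is below those of all other mice, and the Zbtb7b to Runx3 ratio is lowest in TKO 3 and TKO 1 (0.876 and 0.973).

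As a group, the members were called in none of the 3 comparisons. At an adjusted p under 0.05, edgeR called 0 of 9 in TKO against wt mice, where it called 0.294% of all genes tested. It called 0 of 9 in TKO against Zmat3-/- mice, with 0.221% of all genes called, and 0 of 9 in Zmat3-/- against wt mice, with 0.763% called. At these backgrounds fewer than 1 of 9 genes would be called, so the counts set the members apart from no other genes. DESeq2 also called 0 of 9 in each comparison, with 2.87%, 0.556% and 8.04% of all genes called, as did edgeR with the replicate number as a block, with 0.123%, 0.153% and 0.0889%. The unadjusted p was under 0.05 for 1, 0 and 0 members, against 10.3%, 4.5% and 16.1% of all genes. Without wt 1 and wt 2 edgeR called 0 of 9 in TKO (8.15% of all genes) and 1 of 9 in Zmat3-/- mice (Runx1, lower, with 33% of all genes) against the wt mice. Without wt 3 and wt 4 it called 4 of 9 in TKO mice (Bcl11b, Runx1, Runx3 and Ets1, all higher, with 43.6% of all genes) and 7 of 9 in Zmat3-/- mice (all but Zbtb7b and Tox, with Lef1 and Gata3 lower and 56.1% of all genes called). With 1 surrogate variable edgeR called 1 of 9 in TKO against wt mice (Runx3, with 17.9% of all genes), 0 of 9 in TKO against Zmat3-/- mice (0.267%) and 3 of 9 in Zmat3-/- against wt mice (Lef1 and Gata3 lower, Ets1 higher, with 37.8%). Among mice with high Xist it called 0, 0 and 5 of 9, with 20.2%, 2.54% and 42.1% of all genes, and among mice with low Xist 0, 0 and 2 of 9, with 3.02%, 0.107% and 28.2%. Only TKO 1 had high Xist among the TKO mice, so that the TKO side of the first pair of high-Xist fits is 1 mouse, assumed to vary like the mice of the other genotype. Separated values were seen for 1 member in TKO against wt mice (Tcf7) and for none in the other comparisons, where 4.92% of genes in TKO against Zmat3-/- mice and 14.1% in Zmat3-/- against wt mice were separated. The median log2FC of the 9 was 0.15, 0.080 and 0.10 in these comparisons in this order, beside −0.037, −0.0083 and −0.026 over all genes tested. TKO against wt and Zmat3-/- against wt share their wt mice, and their values are not independent.

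**Figure D3:**
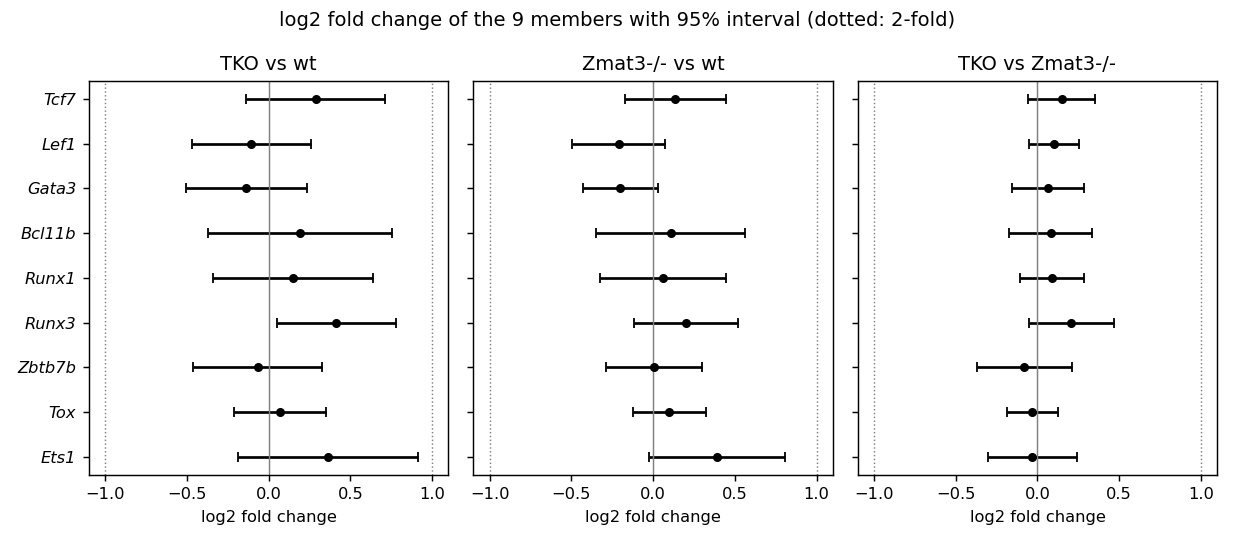
log2 fold change (x axis) of each factor with its 95% interval from edgeR in the 3 comparisons, with dotted lines at a 2-fold change. All 27 intervals lie inside the dotted lines, and the interval of Runx3 in TKO against wt mice (0.048 to 0.78) alone leaves out 0.

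The intervals state what size of change these mice could still hide. In each comparison all 9 intervals lay inside a log2 of 1 in both directions, a 2-fold change. A 1.5-fold change in either direction lay outside the interval of 9 of 9 members in TKO against Zmat3-/- mice, 8 of 9 in Zmat3-/- against wt mice (all but Ets1) and 4 of 9 in TKO against wt mice (Lef1, Gata3, Zbtb7b and Tox).

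**Figure D4:**
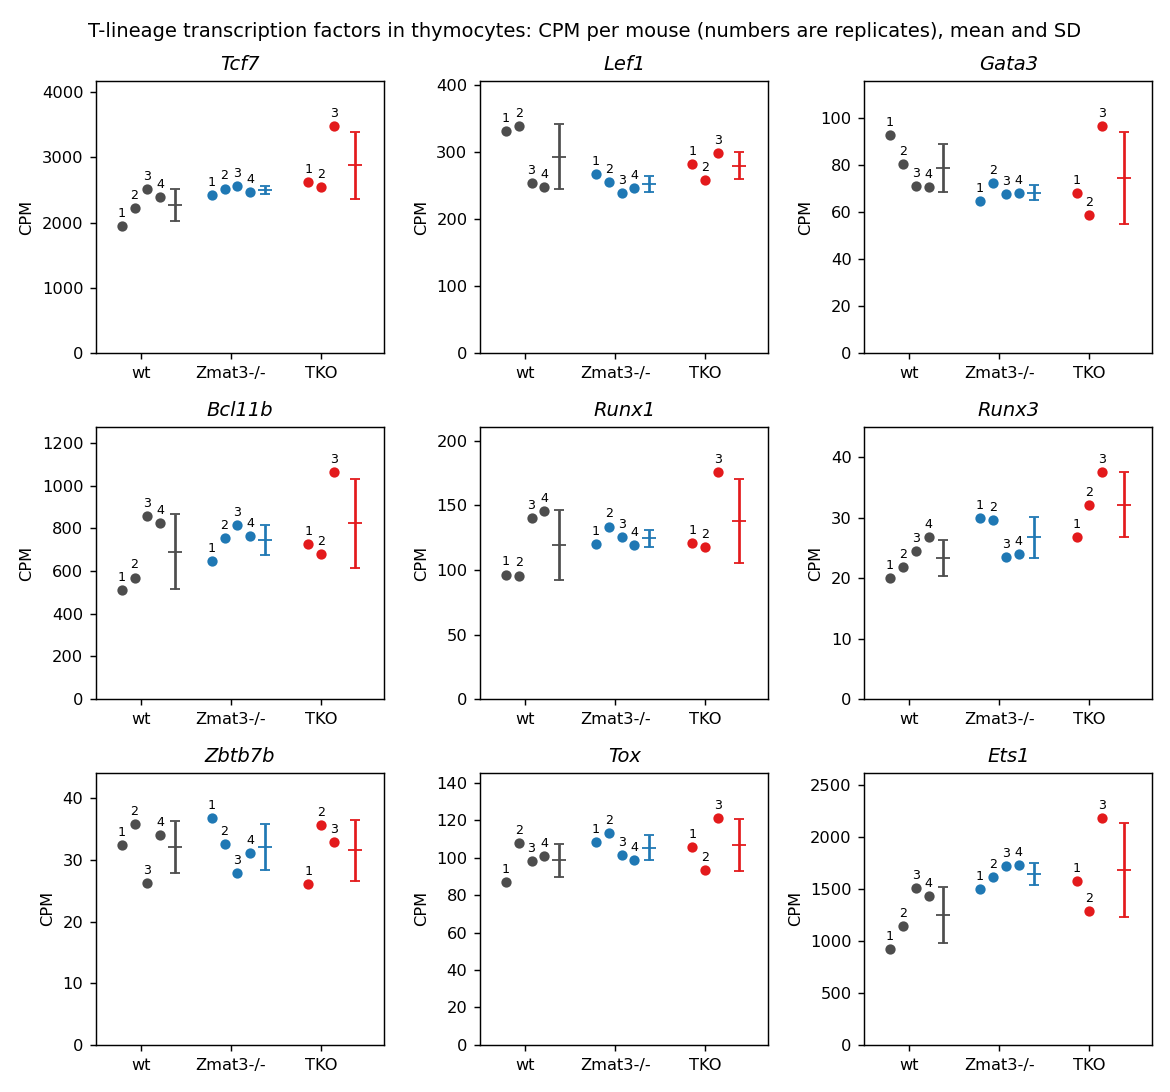
CPM of each factor (y axis, from 0) in each mouse by genotype, with replicate numbers at the points and the mean and SD of each genotype beside them. Wt 1 and wt 2 stand apart from wt 3 and wt 4 in Lef1, Bcl11b, Runx1 and Ets1, and TKO 3 is the highest mouse in 7 of the 9 panels.

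Both wt 3 and wt 4 were above both wt 1 and wt 2 in 5 of the 9 factors (Tcf7, Bcl11b, Runx1, Runx3 and Ets1) and below both in 2 (Lef1 and Gata3). Such a split was common: it was seen in 81.6% of the 13494 genes tested, and the median size of the log2 ratio between the pairs was 0.55 over all genes and 0.29 over the 9. Stage genes differed between the pairs too. Rag1, the recombinase of double-positive cells, had 1603 and 2243 CPM in wt 1 and wt 2 and 5270 and 4939 CPM in wt 3 and wt 4. The list of 14 double-positive genes was not uniform: its summed level, Rag1 included, was 10221 and 11208 CPM against 14244 and 13152 CPM, whereas Dntt, which adds bases to receptor joints, had 1904 and 1915 CPM against 1547 and 1368 CPM. Klf2, which drives exit from the thymus, had 66.8 and 50.3 CPM in the first pair and 20.9 and 21.8 CPM in the second. The summed level of 13 genes of mature single-positive cells was 2148 and 2048 CPM against 1356 and 1387 CPM. In the mutant mice it ran from 1318 to 1517 CPM. The part of these stage genes in the members' values was not tested. An interaction of genotype with the Xist level, which separates the same wt pairs, passed the test for 5 of the 9 factors in Zmat3-/- against wt mice and for 48.5% of all genes.

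**Figure D5:**
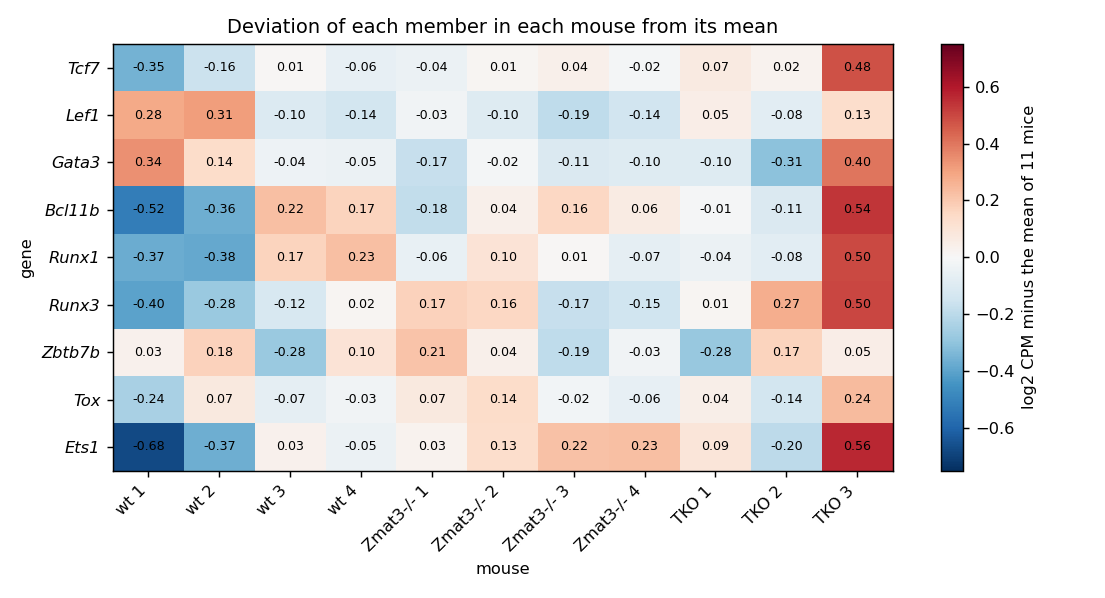
log2 CPM of each factor in each mouse minus its mean over the 11 mice, by colour and number. Wt 1 and wt 2 are low for Bcl11b, Runx1, Runx3 and Ets1 and high for Lef1, and TKO 3 lies above the mean of all 9 factors, by 0.051 to 0.56.

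TKO 3, the deepest library, was the highest of the TKO mice in 8 of the 9 factors and the highest of all mice in 7. Its share of counts from mitochondrial genes, 3.86%, was the lowest of the 11 mice, against 14.6% in Zmat3-/- 3 at the other end. The part of these differences in the members' values was not tested. In 8 of the 9 factors the Zmat3-/- mice had the smallest coefficient of variation of the 3 genotypes.

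Genes whose log2 CPM followed a factor most closely over the 11 mice were named by Pearson's r among 13628 genes. For Ets1 these were Stat5b (r = 0.994) and Exoc2 (0.986), for Bcl11b Lrrc8c (0.990) and Zmynd11 (0.989), and for Runx1 Ppp3cb (0.984) and Smg5 (0.980). Gata3 was followed by Afg3l1 (0.974) and Dhcr7 (0.967), Lef1 by Lbh (0.970) and Sdf2l1 (0.969), and Tcf7 by Gtf2i (0.969) and Fam168b (0.965). The closest genes to Runx3 were Cpox (0.938) and Tent4a (0.938), to Tox Dusp19 (0.879) and Tfip11 (0.870), and to Zbtb7b Rps27 (0.845) and Flt3 (0.820). All 18 were picked as the highest of many values that share the same libraries and the wt pairs. Centred on each genotype's mean, r for these genes lay between 0.820 and 0.995, and without wt 1 and wt 2 between 0.814 and 0.985.

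Of 112 genes on lists of paralogs, partners, other T-lineage regulators, targets and stage markers, 110, 109 and 110 were tested in TKO against wt, TKO against Zmat3-/- and Zmat3-/- against wt mice. edgeR called 0, 0 and 1 of them at an adjusted p under 0.05, against the 0.294%, 0.221% and 0.763% of all genes. At an unadjusted p under 0.05, 3 were higher and 5 lower, 5 higher and 1 lower, and 3 higher and 13 lower in these comparisons. Over all genes 4.17% were higher and 6.18% lower, 2.26% higher and 2.23% lower, and 7.18% higher and 8.92% lower. DESeq2 called 3, 1 and 7 of the listed genes, with 2.87%, 0.556% and 8.04% of all genes called. With all 3 genotypes in 1 fit, which called 1.63% of all genes in TKO against wt mice, 2 were called there. The gene called by edgeR was Ms4a4b, a membrane protein of mature T cells, on the list of mature single-positive cells. It had 85.2, 89.0, 82.5 and 88.5 CPM in the wt mice and 64.0, 61.6, 62.0 and 57.1 CPM in the Zmat3-/- mice, with no overlap and no split between the wt pairs. It fell by 0.49 on the log2 scale (SE 0.0787, adjusted p = 0.0344, edgeR). With the replicate number as a block its adjusted p was 0.192 (edgeR), with no filter on low counts 0.126 (edgeR, 0.188% of all genes called), and without single mice it lay between 0.0429 and 0.160, under 0.05 only without wt 1. In TKO mice Ms4a4b had 58.3, 67.4 and 72.0 CPM.

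Of the 18 partners and cofactors, none was called in any comparison. Cbfb, the common partner of the Runx factors, averaged 226 ± 27.9 CPM (SD) over 3 TKO, 204 ± 4.74 CPM over 4 Zmat3-/- and 175 ± 18.0 CPM over 4 wt mice, with a log2FC of 0.33 in TKO against wt mice (adjusted p = 0.491, edgeR). The list's median log2FC was 0.12 in that comparison. Among 14 paralogs, such as Gata1 and Tox3, 12 were tested in each comparison and none was called.

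Among 28 other regulators of the T lineage, none was called, and the nearest was Egr2, a factor induced by T cell receptor signals. It had 20.4, 24.6, 18.5 and 19.3 CPM in the wt mice, 15.8, 12.4, 12.9 and 14.0 CPM in the Zmat3-/- mice and 12.1, 14.6 and 13.5 CPM in the TKO mice. Every mutant mouse was below every wt mouse, as was so for 6.75% of genes in Zmat3-/- mice and 5.15% in TKO mice. The log2FC was −0.58 in Zmat3-/- (adjusted p = 0.0856, edgeR) and −0.67 in TKO mice (adjusted p = 0.241, edgeR).

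Of 19 target genes of the factors, none was called. Cd4, which Runx3 silences, averaged 1156 CPM over 3 TKO mice (982 to 1452), 1079 CPM over 4 Zmat3-/- mice (959 to 1178) and 1031 CPM over 4 wt mice (1010 to 1073). Cd8a averaged 1721 ± 257, 1634 ± 99.3 and 1930 ± 86.9 CPM in the same order, with all Zmat3-/- below all wt values and with a log2FC of −0.23 in Zmat3-/- against wt mice (adjusted p = 0.368, edgeR). The targets' median log2FC was −0.24 in Zmat3-/- against wt, −0.20 in TKO against wt and 0.062 in TKO against Zmat3-/- mice.

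The stage lists held no other called gene. For Zmat3-/- relative to wt their median log2FC was 0.0038 for the double-negative stage, −0.051 for the double-positive stage, −0.24 for CD4 and −0.29 for CD8 single-positive cells, and −0.43 for mature single-positive cells. In TKO against wt mice the last was −0.31, with 11 of 13 values negative. The median of the 12 T cell markers was −0.35 and −0.33 in these comparisons, and none of them was called. The summed level of these markers in wt 3 and wt 4, however, was below that of every mutant mouse, and the medians without wt 1 and wt 2 were not computed. Of 12 immediate-early genes, which cells switch on within minutes of a stimulus, 3 were called in each comparison with wt mice, and Fosb, Nr4a1 and Dusp1 were higher in both mutant groups. Of all genes tested, 0.294% were called in TKO and 0.763% in Zmat3-/- against wt mice. The other 9 immediate-early genes were not called, among them Fos (log2FC 3.17 in TKO and 3.23 in Zmat3-/- mice), Jun (2.36 and 2.53) and Junb (2.22 and 2.31). The mutant values of Fos, Jun and Junb lay above all wt values, as was so for 6.95% of genes in TKO and 7.31% in Zmat3-/- mice. The wt pairs differed several-fold in these 3 genes, with Fos at 33.3 and 40.2 CPM in wt 1 and wt 2 and at 2.78 and 3.00 CPM in wt 3 and wt 4. In both comparisons 10 of the 12 log2FC were positive, and those of Btg2 (−0.50 and −0.45) and Egr1 (−0.32 and −0.34) were negative. Nr4a1 had 76.7 to 112 CPM in wt, 167 to 220 CPM in Zmat3-/- (log2FC 1.13, adjusted p = 0.0191, edgeR) and 206 to 230 CPM in TKO mice (log2FC 1.15, adjusted p = 0.0354, edgeR). The part of this in the members' values was not tested.

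The library kit did not keep the strand, and 8 of the 9 factors, all but Bcl11b, overlap at least 1 gene on the other strand. The overlapping gene with the largest share was Gm43352 at Lef1, with a mean of 23.0 CPM or 8.39% of the Lef1 level, and the others were at or below 1.85% of their factor. Overlap was taken over whole gene spans with introns, and overlap of exons was not computed. Where exons of such a pair overlap, their reads cannot be told apart without strand. How much of the factors' counts this concerns was not tested.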

How the data were processed

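Thymocyte RNA (TruSeq RNA Prep Kit v2, paired-end reads) was quantified by the authors with Salmon against GRCm38.p6, and the deposited table holds estimated counts per gene that are already whole, so rounding changed 0 of 598598 values. Names and positions came from GENCODE M21, which matched 54166 of 54418 identifiers and is an earlier release than the study used. Groups followed the labels. A gene was tested if it reached 20 counts, after scaling by depth to the shallowest mouse, in at least the number of mice of the smaller genotype. Genes of chromosome Y, Xist, rRNA and immunoglobulin genes that code for no protein were not tested. Each comparison was fitted with edgeR 4.0.16 (TMM, quasi-likelihood test, Benjamini-Hochberg adjustment, R 4.3.3), after the code was tested on simulated data, and a gene was called at an adjusted p under 0.05. The study's own tests used DESeq2 1.40.0 with sex and surrogate variables as terms. The labels used here give no sex, and the Xist level was a covariate in an alternative fit. Here DESeq2 1.42.0, sva 3.50.0, other filters and scalings, a replicate block and left-out mice were alternatives. CPM used TMM factors over 11 mice, with a prior count of 2 on the log2 scale. Ratios had 0.5 counts added. The labels do not say whether mice of 1 number share a litter. Same-numbered Zmat3-/- and wt mice deviated together (r = 0.337, 0.128, 0.257 and 0.301, across genes). Mice of different numbers were not compared in this way, and in both genotypes mice 1 and 2 had high Xist and mice 3 and 4 low Xist. These r values therefore do not show that mice of 1 number are matched, and the block is only an alternative. The members and gene lists were chosen with earlier results of these data known. All 9 members were named, with the targeted genes, list genes that were called, stage genes such as Rag1, Klf2, Cd4 and Cd8a, and for each member the 2 genes most like it. The rule also allowed the 2 genes of a list with the largest absolute log2FC to be named, and not all of these were. Cbfb, Dntt, Jun, Fos, Junb, Btg2 and Egr1 were added after their values were seen. Each library is 1 mouse, and totals ran from 17669715 to 80207003 counts.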

Additional observations from a re-analysis of the deposited data

Results flagged for a closer look

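The difference between Zmat3-/- and wt mice changed with the level of Xist in 5 of the 9 factors, tested as an interaction of genotype with log2 Xist and stated for the lowest to the highest level. It was 0.87 for Runx1 (SE 0.136, adjusted p = 0.000973, edgeR), 0.77 for Runx3 (SE 0.180, adjusted p = 0.00658, edgeR), 0.71 for Bcl11b (SE 0.176, adjusted p = 0.00845, edgeR), 0.57 for Ets1 (SE 0.200, adjusted p = 0.0390, edgeR) and −0.39 for Lef1 (SE 0.123, adjusted p = 0.0246, edgeR). Of all genes tested, 48.5% passed the same test. The wt mice with high Xist are wt 1 and wt 2, so the Xist level and the split of the wt mice cannot be told apart, and the test was chosen after the data were seen.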

How the results depend on the processing

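With 3 or 4 mice a group, a 1.5-fold change stayed inside the interval of 5 of 9 members in TKO against wt mice, and the wt mice were split into pairs. Alternatives that take mice by Xist level or leave out a wt pair were chosen after the data were seen, and for each change below the cause was not tested. Of the alternative values, 468 of the members' log2FC kept their direction and side of the threshold, 21 passed it with the same sign and 42 turned sign, of which 2, both of Runx1, were also called. The members called were 0 in 55 alternatives. In TKO against wt mice, 1 was called with 1 surrogate variable and 4 without wt 3 and wt 4. In Zmat3-/- against wt mice, 3 were called with 1 surrogate variable, 5 in mice with high Xist, 2 in mice with low Xist, 1 without wt 1 and wt 2, and 7 without wt 3 and wt 4. The replicate block called 0 members in each comparison, and 0 listed genes in Zmat3-/- against wt mice. In the other comparisons 1 of the 3 pairs of same-numbered mice had an r under 0.1 (r = 0.060, 0.286 and 0.400 for TKO and wt, and 0.216, −0.027 and 0.201 for TKO and Zmat3-/-). The block was fitted there too, on the mice of the numbers that both genotypes have, without wt 4 or Zmat3-/- 4. These r values do not show that mice of 1 number are matched. In the fits with high Xist, the TKO side is TKO 1 alone and is assumed to vary like the other genotype.

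Of the listed genes, 3 were called in TKO against wt mice by DESeq2, 2 with all genotypes in 1 fit, 27 with 1 surrogate variable, 20 with high and 2 with low Xist, 10 without wt 1 and wt 2, and 43 without wt 3 and wt 4, while these fits called 2.87%, 1.63%, 17.9%, 20.2%, 3.02%, 8.15% and 43.6% of all genes. In TKO against Zmat3-/- mice the counts were 1 by DESeq2 and 5 with high Xist (0.556% and 2.54% of all genes). In Zmat3-/- against wt mice they were 7 by DESeq2, 0 with no filter, 50 with 1 surrogate variable, 50 with high and 32 with low Xist, 26 without wt 1 and wt 2, 59 without wt 3 and wt 4, with 8.04%, 0.188%, 37.8%, 42.1%, 28.2%, 33% and 56.1% of all genes called, and 0 to 1 without single mice. Over all genes DESeq2 called 381, 73 and 1085.

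The log2FC of TKO against wt mice turned with low Xist for Lef1 (0.064), Gata3 (0.026), Bcl11b (−0.052), Runx1 (−0.063) and Zbtb7b (0.10), and without wt 1 and wt 2 for Lef1 (0.096), Bcl11b (−0.11), Runx1 (−0.12) and Zbtb7b (0.00096). Without single mice Zbtb7b ran from −0.21 to 0.064. In TKO against Zmat3-/- mice it turned with 1 surrogate variable for Gata3 (−0.026) and Bcl11b (−0.012), with high Xist for Runx1 (−0.056), Runx3 (−0.14) and Ets1 (0.021), and with low Xist for Zbtb7b (0.14) and Tox (0.017). Without single mice it ran from −0.065 to 0.18 for Gata3, −0.046 to 0.17 for Bcl11b, −0.025 to 0.16 for Runx1 (below 0 only without TKO 3 in these), −0.21 to 0.018 for Zbtb7b, −0.059 to 0.023 for Tox and −0.16 to 0.10 for Ets1. In Zmat3-/- against wt mice it turned with low Xist for Bcl11b (−0.10), Runx1 (−0.24), Runx3 (−0.13), Zbtb7b (−0.051) and Tox (−0.012), and without wt 1 and wt 2 for Bcl11b (−0.19) and Runx1 (−0.22). Zbtb7b also turned with no filter (−0.0017), filterByExpr (−0.0024), all genotypes in 1 fit (−0.0024) and without wt 3 and wt 4 (−0.073). Without single mice Bcl11b ran from −0.014 to 0.23, Runx1 from −0.046 to 0.18 and Zbtb7b from −0.077 to 0.066. The log2 ratio of Zbtb7b to Runx3 turned to 0.044 without wt 1 and wt 2, that of Runx1 to Runx3 to 0.030 without wt 3 and wt 4, both for Zmat3-/- against wt mice, and that of Tcf7 to Lef1 in TKO against Zmat3-/- mice ran from −0.052 to 0.11 without single mice.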
